A study of Mus musculus with 78 samples.

Results

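The Hox cluster genes were followed across mouse embryonic stem cells (mESCs) in which TRIM28 can be degraded on demand. Members were all genes of the RNA-seq tables whose symbol is Hoxa, Hoxb, Hoxc or Hoxd followed by a number only, which gave 40 gene IDs with 39 symbols of 54446 gene IDs in all. Hoxd4 is listed under 2 gene IDs, ENSMUSG00000101174 and ENSMUSG00000115956. The clusters hold 11 Hoxa genes (chromosome 6, 52155590 to 52260880, minus strand), 10 Hoxb genes (chromosome 11, 96194316 to 96368256), 9 Hoxc genes (chromosome 15, 102921103 to 103036852) and 10 Hoxd gene IDs (chromosome 2, 74668310 to 74765142), positions being on mm10.

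Hox genes encode homeodomain transcription factors that give cells their position along the head-to-tail axis. Genes at the 3' end of a cluster, the low paralogue numbers, act first and most anteriorly, and genes at the 5' end, the high numbers, act later and most posteriorly, an order called collinearity. In pluripotent cells the clusters are held silent, mainly by Polycomb complexes, and are opened during differentiation by signals such as retinoic acid, WNT and FGF.

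TRIM28 is a corepressor that brings H3K9 methylation to endogenous retroviruses (ERVs). In the tagged line, derived from V6.5 mESCs by picking single colonies, TRIM28 is fused to an FKBP degron that the small molecule dTAG-13 sends to degradation. The time course used 500 nM dTAG-13 for 2, 6, 24 or 96 h with a DMSO control added for 24 h, 3 RNA-seq libraries each. Cells were expanded on mouse embryonic fibroblast feeders and depleted of feeders by attachment to gelatin before the experiment. The 96 h cells had no DMSO control of their own duration, so the length of culture and the length of degradation cannot be told apart in that comparison. Nascent RNA (TT-SLAM-seq, a 4-thiouridine pulse) was measured in DMSO and at 2, 6 and 24 h, 3 libraries each. ChIP-seq compared DMSO with 24 h of dTAG-13, in groups of 3 libraries (H3K9me3, H3K27Ac) or 2 libraries (RNAPII, and MED23, a Mediator subunit). Further RNA-seq groups of 3 were untreated, untagged parental V6.5 mESCs, neural progenitor cells (NPCs; V6.5, DMSO, in RHB-A medium with bFGF) and a line with doxycycline-inducible short hairpin RNAs against ERVs (shERV) given DMSO, dTAG-13 or dTAG-13 with Dox. The parental and shERV cultures were described as grown on feeders with no depletion step. The paper states that mESCs for its RNA-seq experiments were depleted of feeders, so a difference in feeder handling is uncertain. For all 3 shERV groups the labels give Dox for 24 h before treatment, although only 1 group is labelled as treated with Dox, and these libraries came from total RNA rather than poly(A) RNA.

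RNA levels are in TPM, a unit that corrects for gene length and library depth. Relative depth ran from 0.332 of the median library (24 h, replicate 1) to 1.71 (parental, replicate 3), and the values below are listed in the order of replicates 1, 2 and 3. Changes are given as log2 differences of TPM + 0.5, tested with limma and adjusted over all genes. A gene was called when the adjusted p was below 0.05 and the change exceeded 2-fold. Counts of Hox genes by p alone are given without the share of all genes and are not a result about the family. Trim28 RNA, which the tag does not remove, averaged 624 TPM in DMSO, 372 TPM after 24 h and 192 TPM after 96 h. The tagged protein was not measured in the data used here. Nothing in the labels says that replicates came from separate cultures, so the p-values describe the spread between these libraries, which may be technical. Of the 40 gene models, 12 overlap another Hox model on the same strand (Hoxa3 with Hoxa4 to Hoxa6, Hoxc5 with Hoxc6 and Hoxc8 to Hoxc10, and Hoxd3 with both Hoxd4 IDs), so their reads may be split between neighbours and their values are uncertain.

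The upstream sequences of Hoxd8, Hoxd9 and Hoxb4 are shown because these genes stood among the 5 largest changes at 96 h, and that of Hoxb8 because it had the largest change in NPCs. They come from RefSeq on GRCm38.p6, plus strand, and end just before the first base of the gene, with CG dinucleotides in capitals. Hoxd8 lies at chr2:74704365-74704614, Hoxd9 at chr2:74697513-74697726, Hoxb4 at chr11:96318017-96318266 and Hoxb8 at chr11:96281655-96281904.
Hoxd8: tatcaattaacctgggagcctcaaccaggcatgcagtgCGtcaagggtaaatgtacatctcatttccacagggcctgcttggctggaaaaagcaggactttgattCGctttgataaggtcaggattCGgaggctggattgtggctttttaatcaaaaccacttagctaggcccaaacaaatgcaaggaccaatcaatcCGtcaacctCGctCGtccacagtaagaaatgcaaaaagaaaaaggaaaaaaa
Hoxd9: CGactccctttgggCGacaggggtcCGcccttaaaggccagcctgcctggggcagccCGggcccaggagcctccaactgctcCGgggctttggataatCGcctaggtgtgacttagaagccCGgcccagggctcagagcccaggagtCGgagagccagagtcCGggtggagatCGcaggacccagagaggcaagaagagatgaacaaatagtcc
Hoxb4: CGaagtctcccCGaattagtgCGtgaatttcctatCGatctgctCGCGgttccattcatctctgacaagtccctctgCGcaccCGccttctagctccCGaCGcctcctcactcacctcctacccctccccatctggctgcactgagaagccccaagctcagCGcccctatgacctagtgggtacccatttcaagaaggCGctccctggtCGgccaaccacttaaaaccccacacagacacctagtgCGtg
Hoxb8: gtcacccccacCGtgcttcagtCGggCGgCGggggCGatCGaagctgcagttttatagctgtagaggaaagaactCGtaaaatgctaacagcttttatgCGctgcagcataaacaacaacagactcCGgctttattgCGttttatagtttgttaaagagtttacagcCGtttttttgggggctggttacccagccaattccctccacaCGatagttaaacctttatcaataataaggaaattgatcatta
Within these bases CG occurred 6 times for Hoxd8, 10 times for Hoxd9, 14 times for Hoxb4 and 12 times for Hoxb8. The first base of the Hoxd9 stretch lies in an exon of the noncoding model Gm28793. Upstream windows of 250 bases were matched for 22 of the 39 symbols, with 24 windows. CG was present in 24 of 24 Hox windows and in 92.1% of 32851 windows of all genes, with a median of 12.5 against 6 per window. CCAAT, on either strand, was present in 58.3% of Hox windows and 33.8% of all windows. TGATNNAT, a form of the PBX and HOX pairing motif searched on both strands, was present in 16.7% of Hox windows and 7.68% of all windows.

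In DMSO most of the family was low. The summed level of the 40 genes was 20.7 to 22.4 TPM per library, and 5 to 6 genes reached 1 TPM in a library. Hoxb1 stood at 1.32, 1.90 and 1.56 TPM, Hoxc13 at 1.50, 1.26 and 1.50 TPM, and Hoxd13 at 1.59, 1.67 and 1.62 TPM. These were the highest members of their clusters, and both ends of the clusters were represented: Hoxb1 is an anterior gene, while Hoxc13 and Hoxd13 are the most posterior. The libraries of Hoxc13 and Hoxd13 did not overlap each other, and both overlapped Hoxb1.

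**Figure D1:**
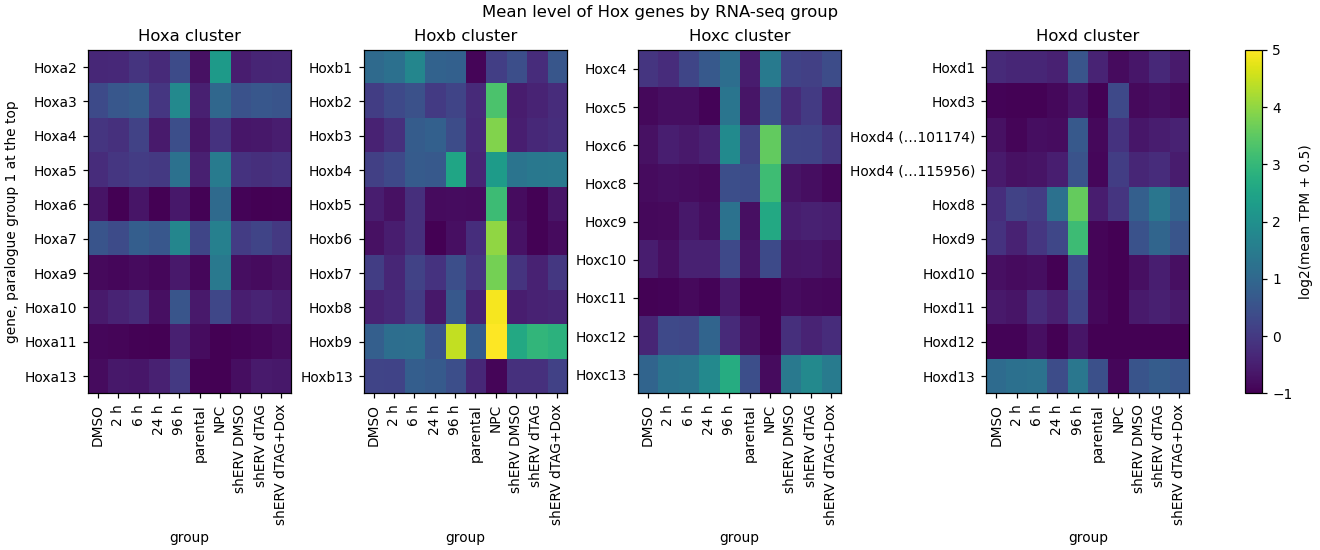
Mean level of Hox genes (rows, paralogue group 1 at the top) in each RNA-seq group of 3 libraries (columns), as log2(mean TPM + 0.5), with values above 5 drawn in the top colour. The 96 h column is bright at Hoxb9, Hoxd8 and Hoxd9, and the NPC column from Hoxb2 to Hoxb9.

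At 2 h of dTAG-13 no Hox gene was called. With limma, 0 of 19 tested were higher (0.251% of all 17922 genes were) and 0 lower (0.123%). An unadjusted p below 0.05 was found for 6 of 19, with no share of all genes to set beside it. Hoxc12 had the largest difference, 0.19, 0.309 and 0.298 TPM in DMSO and 0.867, 0.681 and 0.738 TPM at 2 h (log2 difference 0.72, adjusted p = 0.00835), and its groups did not overlap. At 6 h the log2 difference was above 0 for 19 of 19 tested genes, with a median of 0.35 against 0.03 over all genes. In 10 of 19 every 6 h library lay above every DMSO library, against 24.9% of all genes. Hoxb3, a hindbrain gene, was the 1 call (0.776% of all genes were called higher). Its TPM was 0.0865, 0.315 and 0.342 in DMSO and 1.15, 0.709 and 1.67 at 6 h, without overlap (log2 difference 1.14, SE 0.19, adjusted p = 0.000546). That call was lost without DMSO replicate 1 (0.98) or 6 h replicate 3 (0.94). Hoxb1 stood at 2.52, 3.06 and 2.99 TPM at 6 h, above all DMSO libraries but under the 2-fold threshold (log2 difference 0.69, adjusted p = 0.00559).

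At 24 h, 3 of 19 tested Hox genes were called higher, Hoxd8, Hoxc12 and Hoxb3, against 10.1% of all genes, and 0 lower, against 2.01%. Hoxc12 and Hoxb3 passed the filter only through the 24 h libraries, which favoured a higher call. With no filter, 3 of 40 were called higher and 0 lower, against 5.33% and 1.01% of 37078 genes, so the share of Hox genes called higher was near that of all genes. Of the 19, 3 had an unadjusted p below 0.05 with a negative difference. Hoxd8, expressed in the trunk, measured 0.313, 0.412 and 0.375 TPM in DMSO and 2.21, 1.95 and 1.37 TPM at 24 h (log2 difference 1.42, SE 0.16, adjusted p = 3.07e-06). Hoxc12, a posterior gene, reached 1.69, 1.08 and 1.49 TPM (1.32, SE 0.16, adjusted p = 5.14e-06). Hoxb3 reached 1.32, 1.32 and 1.20 TPM (1.27, SE 0.19, adjusted p = 3.55e-05). None of the 3 overlapped DMSO. Centring each library on its median lowered every log2 difference by 0.289 at 24 h and took Hoxb3 to 0.98, under 2-fold. Hoxd13, Hoxa3 and Hoxb9 lay below DMSO in every library, with log2 differences of -0.68, -0.42 and -0.27. In all, 8 of 19 lay wholly above DMSO (43.9% of all genes) and 3 wholly below (26.2%), so the share wholly above was near that of all genes.

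By 96 h the family was far higher. The summed level was 99.4 to 105.5 TPM per library, against 25.3 to 27.4 at 24 h. With no filter on low values, which keeps all members in view, 19 of 40 were called higher than DMSO and 0 lower, against 10.8% and 6.23% of 37078 genes. With the filter (1 TPM or more in 3 or more time-course libraries), 14 of 19 were called higher (20.3% of all genes) and 0 lower (12.4%). However, 7 of the 19 passed only through the 96 h libraries, which favoured a higher call. These 7 were Hoxa5, Hoxb8, Hoxc4, Hoxc5, Hoxc6, Hoxc9 and Hoxd9. Of the 19, 0 had an unadjusted p below 0.05 with a negative difference by limma. Filtered calls were spread over the clusters, with 4 of 4 tested in Hoxa, 3 of 6 in Hoxb, 5 of 6 in Hoxc and 2 of 3 in Hoxd. With no filter the calls were 5 in Hoxa, 3 in Hoxb, 6 in Hoxc and 5 in Hoxd. Mean levels at 96 h reached 1 TPM in 2 of 3 members of paralogue group 1, 13 of 25 of groups 2 to 9 and 2 of 12 of groups 10 to 13. In DMSO these counts were 2, 1 and 2.

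**Figure D2:**
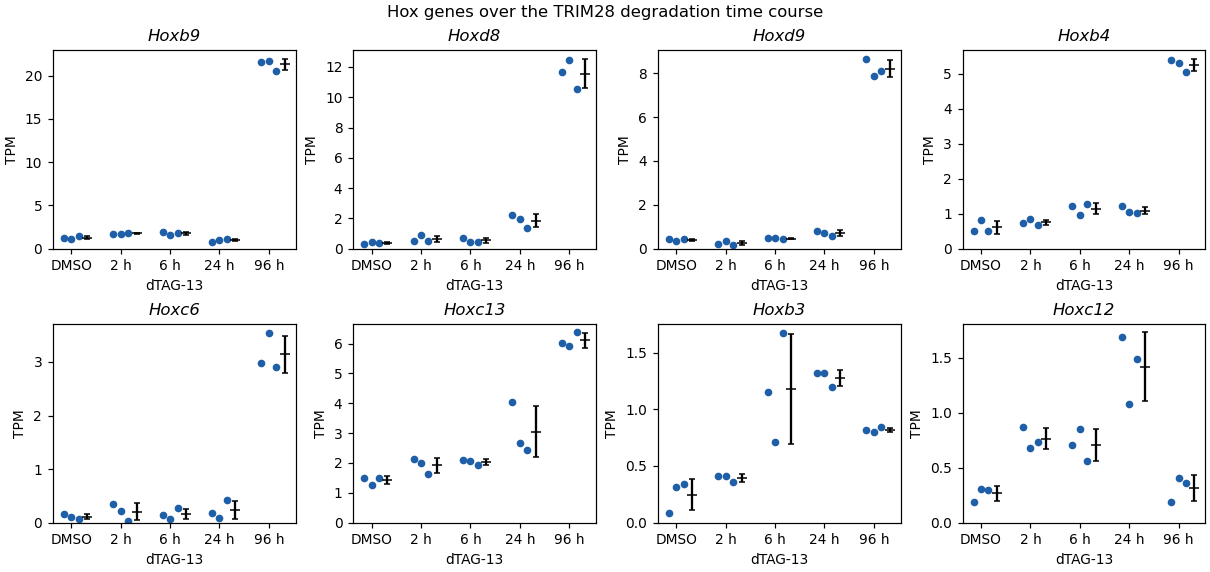
TPM of 8 Hox genes in DMSO and after 2, 6, 24 and 96 h of dTAG-13, with 1 point per library and the mean with SD (n = 3) beside them; each panel has its own linear axis from 0. Hoxb9 stays below 2 TPM up to 24 h and lies between 20.6 and 21.7 TPM at 96 h, while Hoxc12 is highest at 24 h.

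The largest values at 96 h belonged to genes of the middle groups. Hoxb9, a thoracic-level gene, measured 1.23, 1.13 and 1.47 TPM in DMSO. It stood at 0.828, 1.03 and 1.07 TPM at 24 h, and the 96 h libraries held 21.6, 21.7 and 20.6 TPM. The 24 h libraries all lay below DMSO and the 96 h libraries far above. The log2 difference from DMSO was 3.62 (SE 0.10, adjusted p = 2e-13). Hoxd8 rose further, to 11.7, 12.4 and 10.5 TPM (log2 difference from DMSO 3.80, SE 0.16, adjusted p = 2.3e-11). Its neighbour Hoxd9 measured 0.444, 0.366 and 0.431 TPM in DMSO. The 24 h values were 0.827, 0.725 and 0.578 TPM, and those of 96 h were 8.64, 7.87 and 8.11 TPM (3.25, SE 0.12, adjusted p = 3.06e-12). Neither gene's 96 h libraries overlapped any earlier group. Hoxd9, unlike Hoxd8, passed the filter only through the 96 h libraries. Hoxb4, known for its role in blood stem cells, measured 0.501, 0.809 and 0.509 TPM in DMSO and 5.39, 5.31 and 5.04 TPM at 96 h (2.39, SE 0.13, adjusted p = 2.04e-10).

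Hoxc5, Hoxc6 and Hoxc9, genes of the trunk, were at their highest of the time course at 96 h. Hoxc6 measured 0.155, 0.0992 and 0.0633 TPM in DMSO and 2.99, 3.54 and 2.90 TPM at 96 h (log2 difference 2.59, SE 0.20). Hoxc9 measured 0.0556, 0.0415 and 0.050 TPM in DMSO and 1.86, 1.68 and 2.20 TPM at 96 h (2.13, SE 0.15). Hoxc5 measured 0.0159, 0.0324 and 0.0953 TPM in DMSO and 1.31, 1.52 and 3.17 TPM at 96 h (2.12, SE 0.21), and its model overlaps those of Hoxc6 and Hoxc9. These 3 were at 0.416 TPM or less in every 24 h library. Hoxc4 measured 0.611, 0.370 and 0.356 TPM in DMSO. Its 24 h libraries held 1.32, 0.905 and 1.07 TPM, and its 96 h libraries 1.85, 1.90 and 1.51 TPM (1.26, SE 0.15), so that part of its difference was already present at 24 h.

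Hoxc13, at the posterior end of its cluster, measured 4.05, 2.68 and 2.44 TPM at 24 h and 6.02, 5.91 and 6.41 TPM at 96 h (log2 difference from DMSO 1.79, SE 0.14, adjusted p = 2.15e-08). Hoxa3, a gene of the pharyngeal region, measured 0.841, 0.670 and 0.837 TPM in DMSO and 3.28, 3.02 and 2.83 TPM at 96 h (1.47, SE 0.11). Hoxa5, which acts in the lung and neck, measured 0.226, 0.401 and 0.399 TPM in DMSO and 2.37, 1.48 and 1.71 TPM at 96 h (1.47, SE 0.20). Hoxa7 (1.20) and Hoxb8 (1.10) were also called.

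The other tested members were not called at 96 h. Hoxb3 had a log2 difference of 0.84 (adjusted p = 0.000899), and Hoxd13, Hoxb13, Hoxc12 and Hoxb1 had 0.30, 0.21, 0.09 and -0.21. Without the filter, Hoxa10, Hoxc8, Hoxd10 and both Hoxd4 IDs were also called, with log2 differences of 1.06 to 1.41 and 96 h means of 0.780 to 1.09 TPM. Centring each library on its median lowered every log2 difference by 0.277 at 96 h. Hoxa7 then stood at 0.92, Hoxb8 at 0.82 and Hoxc4 at 0.98, and 10 members were still called. Leaving out any 1 of the 96 h libraries left 8 called, because genes high only at 96 h no longer had 3 libraries above the filter.

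Most of the difference fell between 24 h and 96 h. Against 24 h, 18 of 40 were called higher at 96 h with no filter (7.40% of all genes) and 12 of 19 with it (13.7%). The filter again favoured the 7 members that passed only through the 96 h libraries. Among the genes called higher, Hoxb9 had a log2 difference of 3.89, Hoxd9 2.85, Hoxd8 2.38, Hoxc6 2.34, Hoxc5 2.19 and Hoxc9 2.06. Hoxc12 was the 1 gene called lower, against 16.5% of all genes with the filter and 8.63% without. It fell to 0.185, 0.410 and 0.363 TPM, below every 24 h library and overlapping DMSO (-1.23, SE 0.16, adjusted p = 5.99e-06). Without any 1 of the 24 h libraries it no longer passed the filter and was not tested.

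Other cell-type markers moved with the Hox genes at 96 h. The summed level of 20 fibroblast markers was 52.6 to 56.6 TPM in DMSO. It was 78.0 to 83.1 TPM after 24 h, then 448.6 to 477.6 TPM after 96 h, with 15 of 17 tested called higher and only Fap at under 0.05 TPM. The 18 endoderm markers summed to 459 to 479 TPM in DMSO and 2192 to 2227 TPM at 96 h, with Afp, Ttr and Hnf4a under 0.05 TPM. Sparc, a matrix protein gene, carried most of that sum, with a mean of 261 TPM in DMSO and 1405 TPM at 96 h, and of 14 tested endoderm markers 9 were called higher and 2 lower. The 15 streak and mesoderm markers summed to 24.3 to 28.9 TPM in DMSO and 112.2 to 126.9 TPM at 96 h, with 5 of 10 tested called higher and 0 lower. Of 9 tested anterior neural markers 7 were higher and 2 lower, of 4 posterior neural markers 3 were higher and 1 lower, and of 6 neural progenitor markers 0 were higher and 2 lower, while 13 of 15 pluripotency genes were called lower. The part of these markers in the Hox values was not tested, and in bulk RNA a few cells with much Hox RNA cannot be told apart from many cells with little. In the parental libraries the fibroblast markers summed to 158.6 to 161.3 TPM and the Hox genes to 10.5 to 11.2 TPM. In the shERV DMSO libraries the fibroblast markers summed to 167.2 to 179.4 TPM and the Hox genes to 25.8 to 31.0 TPM. How the fibroblast and Hox sums relate was not tested.

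Genes that work with Hox genes, or regulate them, were counted at 96 h from lists of known function, to be read against the 20.3% of all genes called higher and 12.4% lower. Of 9 TALE cofactors, which bind DNA together with HOX proteins, 4 were called higher and 0 lower: Meis3 (log2 difference 2.10), Meis1 (2.03), Pknox2 (1.17) and Pbx2 (1.08). Of 30 tested Polycomb subunits 7 were higher, a share near that of all genes, and 7 lower, led by Phc1 (-3.04) and Jarid2 (-2.63), which fell, and Phc2 (1.71) and Pcgf5 (1.64), which rose. Of 11 genes in a list of MLL/COMPASS subunits, H3K27 demethylases and Psip1, 0 were higher and 1 lower, Dpy30 (-1.82). Of 16 tested retinoic acid genes 6 were higher and 3 lower, including Cyp26b1 (2.03), a retinoic acid hydroxylase, and Crabp1 (-2.19) and Stra8 (-3.04). Of 3 tested caudal, ParaHox and Evx genes, none was higher and Cdx4 was lower (-1.49).

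Noncoding genes of the clusters did not all follow their neighbours. Halr1, a long noncoding RNA of the Hoxa region, averaged 66.0 TPM in DMSO (SD 0.992, n = 3) and 0.924 TPM at 96 h (SD 0.163, n = 3), a log2 difference of -5.55. Hoxd3os1 (2.15), Mir196a-1 (2.00) and Hotairm1 (1.08) were called higher, making 3 higher and 1 lower of 4 tested. Of 18 tested protein-coding genes flanking the clusters 1 was higher and 3 lower, against the 20.3% and 12.4% of all genes given above.

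**Figure D3:**
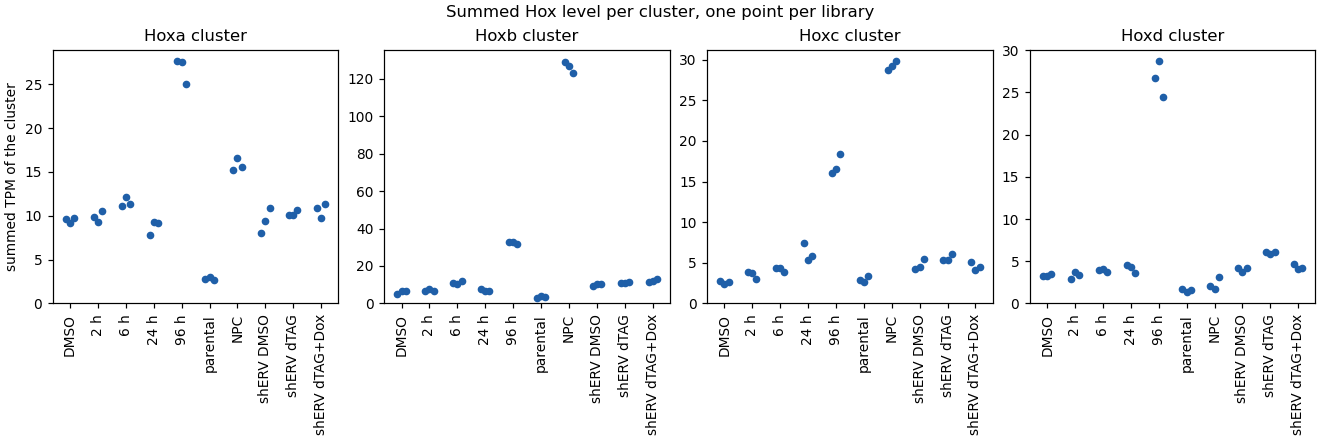
Summed TPM of the members of each cluster, with 1 point per library and a separate linear axis per cluster. At 96 h all 4 clusters lie above every earlier time point, whereas in NPCs the Hoxb sum is 122.9 to 129.0 TPM and the Hoxd sum is 1.70 to 3.17 TPM.

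NPCs carried a different Hox pattern from the tagged mESCs in DMSO. With no filter, 19 of 40 members were called higher (14.3% of 33914 genes) and 4 lower (12.3%). With the filter, 17 of 22 were higher (25.9% of all genes) and 3 lower (20.7%). However, 17 of the 22 passed only through the NPC libraries, which favoured a higher call. Another 4 passed only through the tagged DMSO libraries, which favoured a lower call. All Hox genes given below as higher in NPCs, except Hoxb9, passed only through the NPC libraries. The filtered higher calls fell on 5 of 7 tested Hoxa, 8 of 9 Hoxb, 4 of 5 Hoxc and 0 of 1 Hoxd genes. With no filter they fell on 5 Hoxa, 8 Hoxb, 5 Hoxc and 1 Hoxd genes. The 25 members of groups 2 to 9 had a median mean level of 2.54 TPM and 18 of them reached 1 TPM, whereas none of the 3 members of group 1 or the 12 of groups 10 to 13 did.

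**Figure D4:**
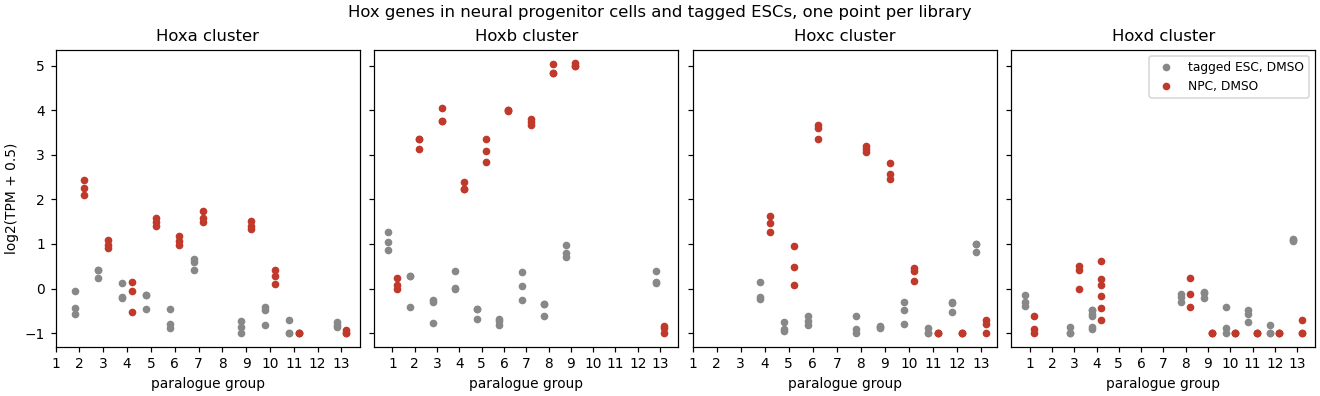
log2(TPM + 0.5) of Hox genes by paralogue group, with 1 point per library for tagged mESCs in DMSO (grey) and NPCs in DMSO (red). Hoxb2 to Hoxb9 stand above the mESC libraries without overlap, while Hoxc13 and Hoxd13 stand below.

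The Hoxb cluster led. Hoxb9 measured 31.3, 32.7 and 31.5 TPM in NPCs (log2 difference 4.19, SE 0.10). Hoxb8, a trunk and spinal cord gene, measured 32.5, 28.1 and 28.1 TPM against 0.287, 0.287 and 0.151 TPM in mESCs, the largest difference among the tested members (5.34, SE 0.13, adjusted p = 1.33e-10). Apart from Hoxb13, these are the most posterior genes of the cluster. Hoxb6 measured 15.6, 15.6 and 15.4 TPM (4.74). Hoxb3 measured 13.1, 16.0 and 13.1 TPM (4.30). NPC and mESC libraries of these genes did not overlap. Hoxb7 measured 12.3, 12.8 and 13.4 TPM (3.68). Hoxb2, a hindbrain gene, measured 9.78, 8.32 and 9.75 TPM (3.24). Hoxb5 measured 9.75, 8.05 and 6.70 TPM (3.63). None of these genes overlapped mESCs, where each was at 0.80 TPM or less except Hoxb9. All of them except Hoxb9, so also Hoxb8, passed the filter only through the NPC libraries, which favoured a higher call.

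In the Hoxc cluster, Hoxc6 measured 11.7, 9.66 and 12.3 TPM in NPCs (log2 difference 4.27). Hoxc8 measured 7.93, 8.25 and 8.73 TPM (3.97). Hoxc9 measured 4.95, 6.58 and 5.46 TPM (3.48). These 3 trunk genes stood above every mESC library. In the Hoxa cluster, Hoxa2, a hindbrain gene, led with 3.81, 4.88 and 4.24 TPM (2.61), also without overlap. Hoxc13 and Hoxd13 were among those called lower, and both passed the filter only through the tagged DMSO libraries. Hoxc13 was at 0.114, 0.078 and 0 TPM (-1.77) and Hoxd13 at 0.113, 0 and 0 TPM (-1.99), each below every mESC library. The highest Hoxd gene, Hoxd3, measured 0.843, 0.486 and 0.914 TPM.

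Set beside each other, 96 h cells and NPCs held different members at high levels, though both are compared with the same DMSO libraries. Hoxd9, at 7.87 to 8.64 TPM at 96 h, was listed at 0 in all 3 NPC libraries. Hoxd8 was at 10.5 to 12.4 TPM at 96 h and 0.256 to 0.680 TPM in NPCs. Hoxb8 was at 1.04 to 1.14 TPM at 96 h and 28.1 to 32.5 TPM in NPCs. Hoxb9 and Hoxb4 were high in both, with Hoxb4 at 4.21, 4.74 and 4.20 TPM in NPCs. Of 10 tested neural progenitor markers 10 were called higher in NPCs, where all 11 summed to 3639 to 3705 TPM against 93.7 to 95.5 TPM in mESCs, and 7 of 9 TALE cofactors were called higher, against 25.9% of all genes, including Meis3 (2.88) and Meis1 (2.69).

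The summed Hox level of untagged parental mESCs was 10.5 to 11.2 TPM per library, below the tagged line in DMSO. Hoxb1 measured 0.0284, 0 and 0.0613 TPM (log2 difference from tagged DMSO -1.97, SE 0.12, adjusted p = 6.6e-07), not overlapping the tagged line. It was 1 of 4 tested genes that passed the filter only through the tagged DMSO libraries, which favoured a lower call. Hoxc8 was at 1.02, 0.583 and 0.802 TPM against 0.156, 0 and 0.0343 TPM (1.20, SE 0.14). Of 22 tested, 1 was called higher (2.25% of all genes) and 2 lower (9.15%), and with no filter 1 and 2 of 40 were (1.23% and 5.33%), shares near those of all genes. With limma, 12 of 22 had an unadjusted p below 0.05, 9 of them lower and 3 higher. An adjusted p below 0.05 was reached by 11 of 22, most of them under the 2-fold threshold. The share of all genes below these p thresholds is not given, so these counts are not a result about the Hox genes. Hoxb9, at 0.976, 1.27 and 1.28 TPM, overlapped the tagged line. The parental cells were untreated and described as grown on feeders. The tag, the vehicle and any difference in culture therefore cannot be told apart.

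In the shERV line, 24 h of dTAG-13 brought no Hox call. With limma 0 of 8 tested were higher (2.38% of all genes) and 0 lower (1.44%). An unadjusted p below 0.05 was found for 4 of 8, all higher, with no share of all genes to set beside it. Hoxb9 measured 5.52, 6.03 and 5.46 TPM in DMSO and 7.24, 6.93 and 7.36 TPM with dTAG-13 (log2 difference 0.32, adjusted p = 0.00244). Hoxd8 measured 1.24, 1.23 and 1.27 TPM in DMSO, 1.75, 2.24 and 2.15 TPM with dTAG-13 and 1.59, 1.16 and 1.35 TPM with dTAG-13 and Dox. Hoxd9 measured 0.969, 1.01 and 0.811 TPM, then 1.39, 1.33 and 1.57 TPM, then 0.981, 1.02 and 1.02 TPM in the same order. For Hoxd8 and Hoxd9 the dTAG-13 libraries lay above both other groups. Adding Dox to dTAG-13 gave 0 higher (1.49% of all genes) and 0 lower (1.96%) of 8 with limma, and 3 had an unadjusted p below 0.05: Hoxd8 (-0.45), Hoxd9 (-0.36) and Hoxc13 (-0.34), with adjusted p of 0.0136, 0.0352 and 0.023. Tested directly, the 24 h response differed from that of the time course for 5 of 12 Hox genes, against 51.4% of all genes. Among the 5, Hoxc12 and Hoxb3 passed the filter only through the time-course 24 h libraries, which favoured a difference. Fibroblast markers summed to 167.2 to 179.4 TPM in the DMSO libraries of this line, and their part in its Hoxb9 level was not tested.

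Nascent Hox transcription was at the edge of detection. In TT-SLAM-seq, whose FPKM are per kilobase of the whole gene including introns, 1 of 40 members passed 0.5 FPKM in 3 libraries. With limma 0 of 1 was called at 2, 6 and 24 h, where 0.127%, 0.374% and 2.49% of all genes were called higher and 0.0973%, 0.195% and 0.906% lower, and 0 of 1 had an unadjusted p below 0.05. On read numbers recovered from the FPKM, with no filter (limma voom, chosen after seeing the data), 1 of 40 was called higher at 2 h (Hoxb6, 0.383% of all genes), 3 at 6 h (Hoxa10, Hoxa2 and Hoxb13, 0.545%) and 1 at 24 h (Hoxc4, 4.03%). No gene was called at more than 1 of these times.

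At chromatin, MED23 peaks lay at most Hox starts in DMSO. Peaks within 1 kb of a start were counted after keeping the same number of the strongest peaks in each library of a mark, 14551 for MED23. In DMSO 25 and 25 of 40 Hox starts had a peak, against 27% and 27.4% of 21879 starts of other protein-coding genes. At 24 h 18 and 15 did, against 16.9% and 16.8%. The difference of -8.5 starts had an exact two-sided permutation p of 0.33, the smallest that 2 against 2 libraries allow. Of the 25 starts with a peak in both DMSO libraries 7 had none in either 24 h library, while among other genes this held for 39.1% of 5158 starts. Over all starts that is 7 of 40 against 9.22% of other starts.

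Peak height, as fold enrichment over the caller's background, was lower at 24 h at the Hox starts with the strongest peaks. Hoxc11 had 49.2 and 58.2 in DMSO and 25.4 and 9.13 at 24 h. Hoxd13 had 34.1 and 29.9 in DMSO and 12.2 and 11.0 at 24 h, and Hoxa5 had 30.5 and 28.7, then 4.62 and 4.27. Hoxd11, the strongest in DMSO with 78.0 and 111, had no listed peak at 24 h. Over the 14 Hox starts with a peak in all 4 libraries, the median ratio of 24 h to DMSO was 0.301 (range 0.15 to 0.789), close to 0.354 over 3391 other starts. The libraries also differed in the number of deposited peaks, 63045 and 58925 in DMSO against 15335 and 14551 at 24 h, and the part of library quality in these ratios was not tested. Neighbouring starts can share 1 peak, as Hoxb7 and Hoxb8 or Hoxd3 and Hoxd4 do.

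**Figure D5:**
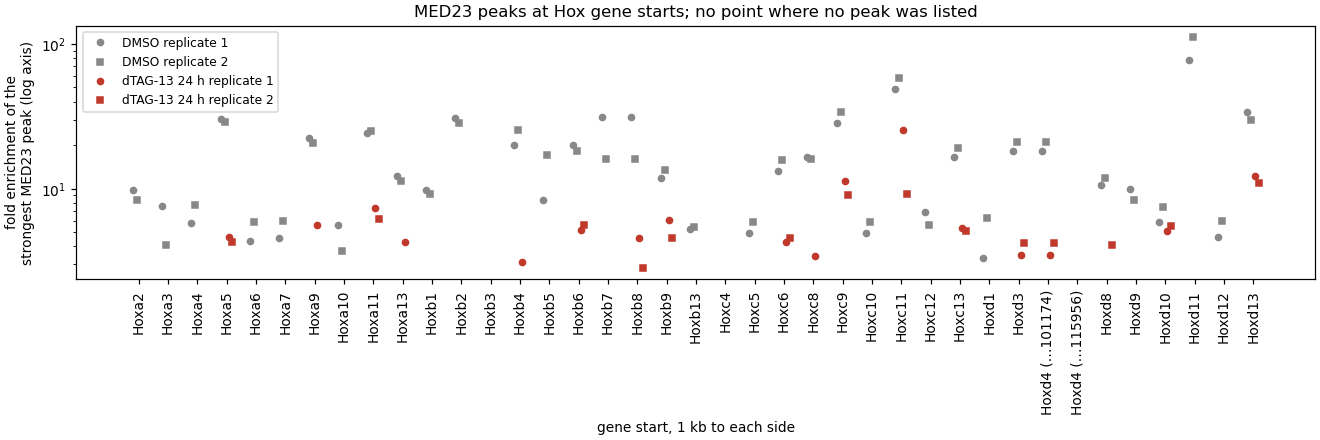
Fold enrichment (log axis) of the strongest deposited MED23 peak within 1 kb of Hox starts in the 2 DMSO libraries (grey) and the 2 libraries after 24 h of dTAG-13 (red); no point is drawn where no peak was listed. At each start with 4 points the DMSO points lie above the 24 h points.

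The other marks were almost absent from Hox starts. H3K27Ac, a mark of active promoters and enhancers, had a peak among the 30259 strongest at 1 of 40 Hox starts in 5 libraries and at 0 in the third 24 h library, against 22.4% to 41.5% of other starts. Among the 7689 strongest RNAPII peaks, 0 Hox starts had one in either DMSO library and 1 had one in each 24 h library, against 21.2% to 27.1% of other starts. With all deposited RNAPII peaks 1 Hox start had a peak in each library, against 21.2% to 41.3% of other starts. H3K9me3, the mark that the TRIM28 pathway deposits, was found at 1 start in 1 DMSO library (Hoxd12, fold enrichment 4.1) and at 0 starts in the 5 other libraries, against 0.338% to 0.603% of other starts. With all deposited H3K9me3 peaks, Hoxd12 also had one in DMSO replicate 2 (2.09). No Hox start then had one at 24 h, against 0.443% to 3.236% of other starts in the 24 h libraries. The first 24 h H3K9me3 library holds 11474 peaks against 104579 to 147611 in the others, which sets the number compared. The series holds ChIP-seq of DMSO and 24 h cells only, and none of 96 h cells or NPCs, where the Hox RNA was high.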

How the data were processed

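RNA-seq reads were, per the labels' processing notes, handled with cutadapt 2.4, STAR 2.7.5a and StringTie 2.0.6. The authors deposited TPM per gene, and the deposited coverage signal served only to compare depth. For TT-SLAM-seq the authors counted converted reads per gene and deposited FPKM, and a read over several genes counted for each. From 98.3% to 99.4% of low FPKM were whole reads within 0.1. For ChIP-seq (BWA, MACS2, mm10) the authors called peaks per library and deposited fold enrichment and -log10 p. Gene IDs listed repeatedly were summed.

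Comparisons were made in R 4.3.3 by limma 3.58.1, with lmFit and a trended eBayes, on log2 of TPM or FPKM + 0.5, after requiring at least 1 TPM or 0.5 FPKM in at least 3 libraries of the fit, with Benjamini-Hochberg adjustment over all genes. The time course, the mESC and NPC lines, the shERV line and TT-SLAM-seq were fitted separately. Peaks were ranked by fold enrichment, kept in equal numbers per mark and tested by exact permutation. Values in each library were given for called members, up to 12 per comparison by size of change, and for the highest member of each cluster in DMSO and NPCs. From each other gene list at most 4 called genes were named. The alternatives were pseudocounts, filters, median centring, a replicate block, fits of the compared groups alone and leaving out libraries. The fits were tested on simulated data. The members and lists were chosen with earlier results of these data known. Results of some genes are not reported here.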

Additional observations from a re-analysis of the deposited data

Results flagged for a closer look

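The 24 h response to dTAG-13 differed in the shERV line from that in the time course for 5 of the 12 Hox genes tested for the difference itself (limma interaction, adjusted over all genes), where 51.4% of 17653 genes differed. As the shERV response minus the time-course response on the log2 scale, the difference was -1.51 for Hoxc12 (adjusted p = 0.000134), -1.07 for Hoxb3 (0.00313), -0.88 for Hoxd8 (0.00333), 0.86 for Hoxd13 (0.00112) and 0.58 for Hoxb9 (0.00497). Hoxc12 and Hoxb3 passed the filter of this fit only through the time-course 24 h libraries, which favoured a difference. Hoxc12 measured 0.417, 0.369 and 0.327 TPM in shERV DMSO and 0.33, 0.232 and 0.222 TPM with dTAG-13, whereas it rose in the time course. Hoxb3 measured 0.106, 0.228 and 0.280 TPM, then 0.220, 0.379 and 0.317 TPM. Hoxd13 measured 0.990, 0.835 and 1.12 TPM, then 1.34, 1.17 and 1.03 TPM, overlapping, while all its 24 h libraries in the time course lay below DMSO. The library kit, the described feeder handling and the Dox labels differ between the experiments and cannot be told apart.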

How the results depend on the processing

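A pseudocount of 0.1 gave 1 Hox gene called higher at 2 h, 2 at 6 h, 5 at 24 h and 3 in parental cells, and a pseudocount of 1 gave 0 at 6 h, 1 at 24 h, 0 in parental cells and 0 lower from 24 h to 96 h. A filter of a mean of at least 5 TPM, which leaves few Hox genes to test, gave 0 at 6 h, 0 at 24 h, 2 at 96 h, 2 higher and 0 lower from 24 h to 96 h, 3 higher and 0 lower in NPCs, and 0 higher and 0 lower in parental cells. Fitting only the compared groups gave 0 at 6 h and 0 higher in parental cells, and centring on the median gave 2 higher in parental cells. Recovered TT-SLAM-seq reads with no filter (added after seeing the data) gave 1, 3 and 1 at 2, 6 and 24 h.

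Leaving out 1 library gave 0 to 1 Hox genes called higher at 6 h, 2 to 3 at 24 h, 8 to 14 at 96 h, 6 to 13 higher and 0 to 1 lower from 24 h to 96 h, 2 to 17 higher and 3 to 4 lower in NPCs, and 1 to 2 higher and 1 to 2 lower in parental cells. The low ends at 96 h and in NPCs came without a 96 h library or an NPC library, where the filter of 3 libraries removed genes high in that group alone. In parental cells the second gene called higher came without parental replicate 1, and 1 lower without any DMSO replicate. The 5 differences between lines became 3 without time-course 24 h replicate 1, within a range of 3 to 6. The MED23 difference ran from -10 to -7 starts without 1 library, and was -20.5 with all deposited peaks and -3 with peak midpoints only. For the H3K27Ac and H3K9me3 starts the range was -0.5 to 0, and for RNAPII it was 1.

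Replicate numbers did not pair the libraries (correlations of deviations from -0.205 to 0.177). With the replicate block 14 Hox genes were called at 96 h and 17 higher in NPCs, and it changed no other count. Of the named genes' values 677 kept their direction and call and 22 kept direction only, and none reversed. The planned smaller fixed number of peaks was not run for RNAPII, since both 24 h libraries hold fewer. Low levels limit TT-SLAM-seq, and 2 ChIP-seq libraries per group cannot give a p below 0.33.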
